A study of Homo sapiens with 16 samples.

Results

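The circadian clock genes measured here were PER1, PER2, PER3, CRY1, CRY2, ARNTL, CLOCK, NR1D1, NR1D2 and DBP, and every row of the array table with one of these 10 symbols was taken, with each probe kept apart. They had 12 probes among the 20589 rows, which carry 18190 symbols. The cells were MCF10A, a nontransformed human mammary epithelial line, cultured with insulin, EGF and hydrocortisone, and treated with CP724,714, a small molecule that inhibits the HER2 kinase, at 1 µM. RNA was taken from parallel cultures every 3 h up to 45 h, and 1 Illumina human Ref8v2 array was hybridized for each of the 16 time points. The culture of 0 h was untreated, and no time point had a replicate. There was no untreated series, and by the methods of the study the medium was also changed when treatment began. The action of the inhibitor, that of fresh medium and that of time in culture therefore cannot be told apart. The limma p-values below measure scatter around a fitted curve or within groups of time points, and the permutation p-values rest on reordering the arrays. None of these measures the spread between replicate cultures, and cultures taken at neighbouring times are not independent draws.

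The mammalian clock is a feedback loop of transcription. CLOCK and ARNTL (also called BMAL1) pair to activate genes through E-box sequences in DNA, among them the PER and CRY genes, whose proteins return to the nucleus and repress that pair. A second loop runs through NR1D1 and NR1D2 (REV-ERBs), which repress ARNTL through ROR elements, and DBP is an output activator that binds D-boxes. In cells whose clocks are in step, the PER genes and DBP peak far from ARNTL within a cycle of about a day, and glucocorticoid or fresh medium can reset the phase.

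Promoter windows of PER2, CRY1, CRY2 and ARNTL are shown here as examples of letter matches to elements of the kind through which the loop works. Other clock genes that are not shown hold such matches too, PER1 and NR1D2 among them. RefSeq (GRCh38.p14) matched all 10 genes, with 15 windows of 300 bases, 250 before and 50 after the start of a transcript. Both strands were searched for the E-box CACGTG, its variant CACGTT, the D-box TTATGTAA and the ROR element core AGGTCA, which share no letters at the sites printed. Capitals mark each match, on either strand. The PER2 window is chr2:238288561-238288860 on the minus strand, and that of CRY1 is chr12:107093500-107093799 on the minus strand. CRY2 and ARNTL each have 2 windows, of which 1 is shown. These are chr11:45847225-45847524 for CRY2 and chr11:13277540-13277839 for ARNTL, both on the plus strand.
PER2: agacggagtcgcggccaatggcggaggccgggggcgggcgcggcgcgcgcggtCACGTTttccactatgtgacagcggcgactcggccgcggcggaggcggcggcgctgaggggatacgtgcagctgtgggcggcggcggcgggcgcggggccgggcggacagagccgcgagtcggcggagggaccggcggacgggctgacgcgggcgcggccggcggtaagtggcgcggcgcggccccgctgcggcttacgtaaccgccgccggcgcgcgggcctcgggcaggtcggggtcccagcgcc
CRY1: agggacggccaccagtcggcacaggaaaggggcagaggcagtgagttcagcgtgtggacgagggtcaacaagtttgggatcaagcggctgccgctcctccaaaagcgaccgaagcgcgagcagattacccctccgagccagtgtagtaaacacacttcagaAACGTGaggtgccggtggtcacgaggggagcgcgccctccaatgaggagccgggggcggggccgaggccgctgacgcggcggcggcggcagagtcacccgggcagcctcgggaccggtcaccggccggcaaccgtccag
CRY2: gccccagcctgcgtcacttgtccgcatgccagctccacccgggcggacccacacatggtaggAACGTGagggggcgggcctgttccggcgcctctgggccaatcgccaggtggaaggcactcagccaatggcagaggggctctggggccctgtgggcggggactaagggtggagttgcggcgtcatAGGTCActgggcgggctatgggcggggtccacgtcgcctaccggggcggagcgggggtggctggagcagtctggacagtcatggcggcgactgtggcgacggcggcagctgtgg
ARNTL: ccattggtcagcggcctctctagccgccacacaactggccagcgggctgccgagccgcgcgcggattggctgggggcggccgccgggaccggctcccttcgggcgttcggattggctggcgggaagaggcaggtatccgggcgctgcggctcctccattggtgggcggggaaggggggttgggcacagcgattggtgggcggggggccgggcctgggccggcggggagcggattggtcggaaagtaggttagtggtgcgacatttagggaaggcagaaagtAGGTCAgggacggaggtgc

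The windows of PER2, CRY1 and CRY2 each hold the E-box variant, as CACGTT in PER2 and as its reverse complement AACGTG in CRY1 and CRY2, and CRY2 also holds AGGTCA. The ARNTL window shown holds AGGTCA alone. The other window of ARNTL holds none of the 4, and the other window of CRY2 holds AGGTCA alone. The E-box variant is in 5 of the 15 windows, 1 each of PER2, CRY1, CRY2, CLOCK and NR1D1, against 5.35% of all 34943 windows. The E-box itself is in 2 of the 15, of PER1 and NR1D2 (7.23% of all windows). The D-box is in 2, of PER3 and NR1D2 (0.89%), and the ROR core in 4, of PER1, CRY2 and ARNTL (13.8%). DBP has none of the 4 in its window. A match is a run of letters, and whether a factor bound there was not measured.

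Of the 12 clock gene probes, 8 were bright enough to test, for 7 genes. A probe counted as above background on an array where its detection p, the share of negative control beads that were as bright, was under 0.05, and a probe was tested if this held on at least 3 arrays. That left 11957 probes in all. The probes of PER3, NR1D1 and NR1D2 and the PER2 probe ILMN_25770 were not above background on any of the 16 arrays, so the table gives no course for these genes, and PER2 was read by its other probe, ILMN_25878. The smallest detection p of these 4 probes was 0.072, for NR1D1. Levels are log2 intensities after background correction and quantile normalization. They compare arrays for 1 probe, not probes with each other.

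The cells carried the markers of their label. All 10 genes of a mammary epithelial list, among them the keratin KRT5 and the receptor EGFR, were above background on at least 1 array, and 8 of them on all 16. The keratin KRT14 was above background on 1 array only. The hormone receptors ESR1 and PGR were above background on none. Of the markers of other cell types, 1 of 6 fibroblast, 2 of 5 leukocyte and 1 of 3 endothelial genes were above background on any array, and COL1A1, CD3E, CDH5 and VWF on none. CD68, a lysosomal protein abundant in macrophages, was above background on all 16 arrays, and PECAM1, an endothelial adhesion molecule, on 15. They were 0.68 and 0.84 log2 units higher in the last 4 time points than in the first 4 (limma adjusted p = 0.0027 and 0.0003), and their part in the clock gene results was not tested. The arrays were alike in brightness, with median intensities of 210 to 254 and 50.1% to 52.9% of rows above background.

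PER2, a repressor of the loop, had the widest course of the tested clock genes. Its levels were 9.61, 8.80, 6.92 and 6.27 at 0, 3, 6 and 9 h, then 9.95, 9.51, 8.81 and 7.88 at 12 to 21 h, then 9.88, 9.41, 8.55 and 7.99 at 24 to 33 h, and 9.99, 10.36, 9.99 and 9.93 at 36 to 45 h. In each of the first 3 runs of 4 time points PER2 began high and fell at every step, and it was back up at the start of the next run. The highest level (39 h) was 17.1 times the lowest (9 h), and 6.18 times without background correction. In the last run the fall was all but absent, with a range from 9.93 to 10.36.

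CRY2, a partner of the PER proteins in repression, had the same shape with a smaller range. Its levels were 7.69, 7.65, 6.57 and 6.55 at 0 to 9 h, 7.71, 7.34, 7.02 and 7.10 at 12 to 21 h, 7.66, 7.29, 7.10 and 6.74 at 24 to 33 h, and 7.88, 8.01, 7.79 and 7.74 at 36 to 45 h. Each run again started near the same level, between 7.66 and 7.88. The highest level was 2.74 times the lowest, and 1.64 times without background correction.

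CRY1, the other cryptochrome, fell within runs too, but its last run was low. It stood at 8.13, 8.66, 8.33 and 7.01 at 0 to 9 h, at 8.40, 8.38, 7.67 and 7.58 at 12 to 21 h, at 8.19, 8.12, 7.92 and 7.57 at 24 to 33 h, and at 7.53, 7.28, 7.48 and 7.28 at 36 to 45 h. PER2 and CRY2 were thus at their highest in the run where CRY1 stayed low. The highest CRY1 level was 3.14 times the lowest, and 1.92 times without background correction.

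ARNTL, the activator, ran the other way. Its brighter probe, ILMN_6635, read 8.77, 9.44, 8.88 and 8.91 at 0 to 9 h, 8.26, 8.57, 8.90 and 8.86 at 12 to 21 h, 8.01, 8.58, 8.98 and 8.85 at 24 to 33 h, and 8.10, 8.27, 8.46 and 8.60 at 36 to 45 h. From 12 h on it began each run low and ended it higher, while PER2 and CRY2 began high. Its highest level was 2.69 times its lowest, and 2.02 times without background correction. The second probe, ILMN_6868, was above background on only 4 arrays, those of 3, 9, 21 and 33 h, with levels of 6.38, 6.43, 6.51 and 6.27, and its highest level was at least 1.35 times its lowest.

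DBP, the output activator, had a different course. It fell from 8.51 at 0 h through 7.99 and 6.92 to 6.21 at 9 h, stood at 7.29, 7.15, 6.89 and 7.10 at 12 to 21 h and 6.99, 7.13, 7.11 and 7.10 at 24 to 33 h, and rose to 8.42, 8.69, 8.48 and 8.14 at 36 to 45 h. The 8 levels from 12 to 33 h lay within 6.89 to 7.29, against 6.21 to 8.51 in the first run. The highest level was 5.56 times the lowest, and 2.46 times without background correction.

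PER1, a PER2 relative that many stimuli induce early, was dim. It read 7.34 at 0 h, was not above background at 3, 6 and 9 h (5.88, 6.05 and 5.97), and then read 6.69, 6.18, 6.41 and 6.55, then 6.68, 6.42, 6.20 and 6.28, and then 7.19, 7.04, 6.66 and 6.62 up to 45 h. The untreated culture of 0 h thus had the highest PER1 level, at least 2.37 times the lowest. CLOCK, the partner of ARNTL, lay between 6.16 and 6.94, with a highest level 1.72 times its lowest, and it was not above background at 3 h. Without background correction the highest level was 1.57 times the lowest for PER1 and 1.26 times for CLOCK.

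**Figure D1:**
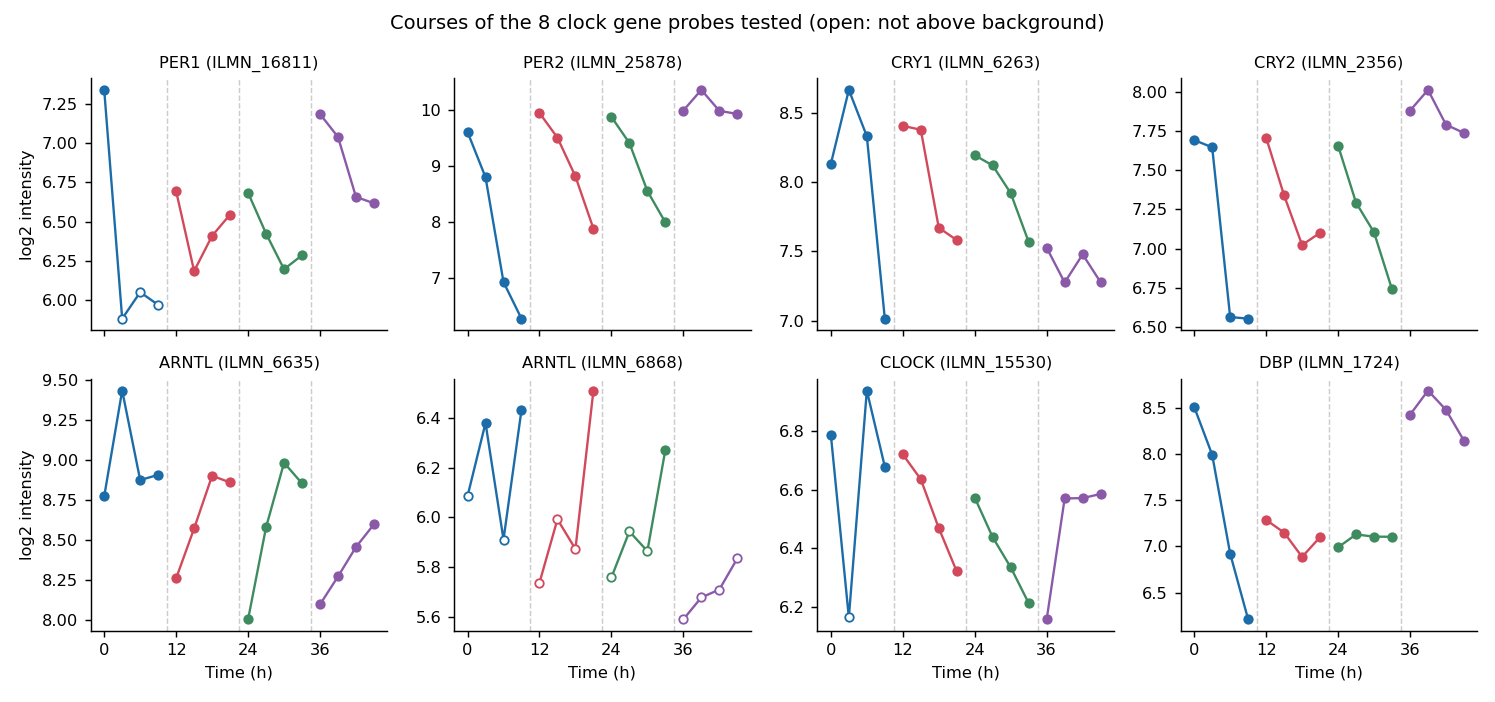
Log2 intensity (vertical axis, scaled to each panel) against time in hours for the 8 tested clock gene probes, with 1 array per point, a colour for each run of 4 time points, and open points where the probe was not above background. PER2 and CRY2 start each run high and fall in the first 3 runs, ARNTL rises within the last 3 runs, and DBP stays between 6.89 and 7.29 from 12 to 33 h.

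A course of about 24 h was tested with limma, with a cosine of that period beside a straight line in time, over all 11957 probes. No probe was called at an adjusted p under 0.05 (0% of the probes). At an unadjusted p under 0.05 there were 470 probes (3.93%), and 0 of the 8 clock gene probes. The smallest p among them was that of PER2, 0.157, with an amplitude of 0.71 on the log2 scale (SE 0.35, limma, 16 arrays). The amplitudes of the others ran from 0.08 for CLOCK (SE 0.09) to 0.32 for DBP (SE 0.24). These misses do not show that a daily course was absent: the series spans less than 2 full periods with 1 array per time. With the first 4 time points left out, 14.5% of all probes passed the 24 h test, and 1 of the 8 clock gene probes. This was DBP (amplitude 0.49, SE 0.11, limma adjusted p = 0.018, fitted peak at 14.9 h of the 24 h cycle). The level of DBP at 15 h was 7.15, within its range of 6.89 to 7.29 from 12 to 33 h. It was higher only from 36 h on, with 8.42 at 36 h and 8.69 at 39 h. The fit thus describes 1 late rise, and a daily repeat was not seen in the DBP levels.

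A cosine with a period of 12 h was tried after the values had been seen. By this test, too, no probe passed at an adjusted p under 0.05 (0%), and 237 probes (1.98%) had an unadjusted p under 0.05. Of all 11957 probes PER2 had the smallest p (0.00032, limma, adjusted p = 1.00) and CRY2 the third smallest (0.0018). The amplitude was 1.21 for PER2 (SE 0.23) and 0.48 for CRY2 (SE 0.11), with peaks at 1.62 and 1.40 h after the start of each 12 h cycle. For ARNTL ILMN_6635 it was 0.32 (SE 0.09, unadjusted p = 0.014, limma), with a peak at 6.55 h. PER1 had an amplitude of 0.36 (SE 0.12, unadjusted p = 0.021, limma, peak at 0.27 h). That of CRY1 was 0.33 (SE 0.12, unadjusted p = 0.045, limma, peak at 2.68 h). DBP (0.48, SE 0.22), ARNTL ILMN_6868 (0.18, SE 0.08) and CLOCK (0.03, SE 0.09) had unadjusted limma p-values of 0.12, 0.14 and 0.93.

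**Figure D2:**
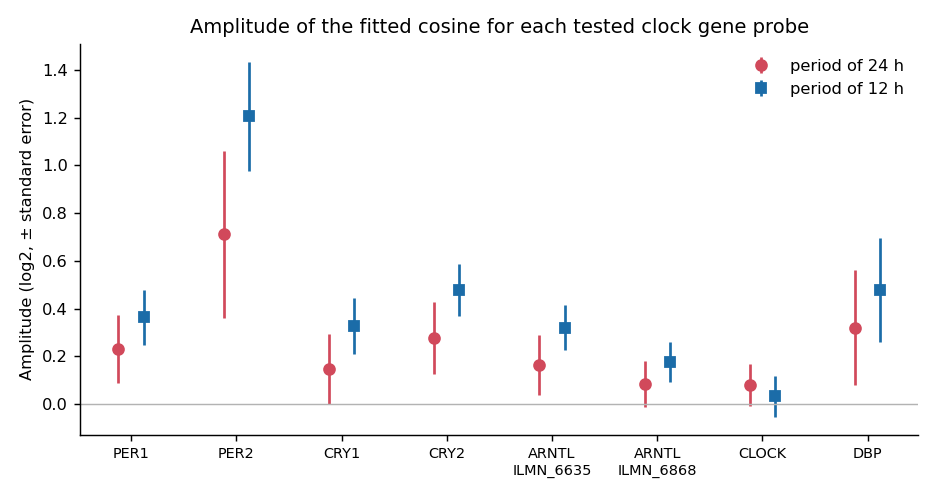
Amplitude of the fitted cosine in log2 units with its standard error for each tested clock gene probe, for a period of 24 h (circles) and of 12 h (squares), from fits to the 16 arrays. The 12 h amplitude of PER2 is 1.21 against 0.71 for 24 h, and that of CLOCK is near 0 at both periods.

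The repeat is also visible without a fitted curve. Arrays 12 h apart differed in PER2 by 0.79 on average (mean absolute log2 difference), less than arrays 3 h apart (1.05) and less than those 6 h apart (1.703). Arrays 24 h apart differed by 1.04. DBP showed no such return: its mean difference grew from step to step and was 1.10 at 24 h. PER1 and CLOCK differed no less at 12 h (0.38 and 0.26) than at 3 h (0.37 and 0.21). PER1 did differ less at 12 h than at 6, 9 or 15 h (0.47, 0.52 and 0.45), and CLOCK did not.

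**Figure D3:**
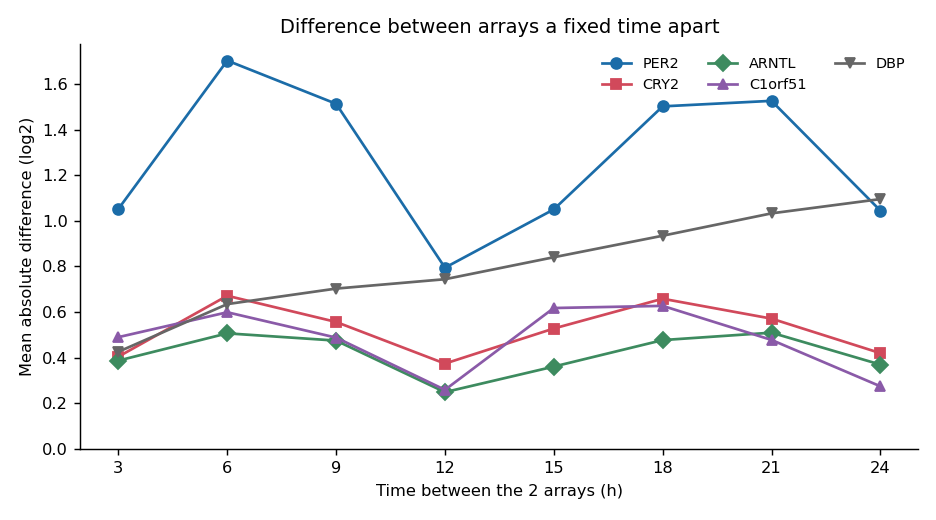
Mean absolute log2 difference between arrays (vertical axis) against the time between them in hours, for PER2, CRY2, DBP, the ARNTL probe ILMN_6635 and the clock repressor C1orf51. All but DBP have their smallest difference at 12 h.

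The change inside the runs was then measured in 1 fit, in which each set of 4 consecutive time points had its own level and a common slope per 3 h step. This test was also chosen after the courses had been seen, on the same arrays, so it describes the pattern and is no independent evidence of it. PER2 fell by 0.65 per step on the log2 scale (SE 0.11, limma adjusted p = 0.0055) and CRY2 by 0.26 (SE 0.05, adjusted p = 0.035). These were 2 of the 8 clock gene probes, both falling, and 0.644% of all probes were called (0.602% falling and 0.0418% rising). In the 4 sets in time order the slope of PER2 was -1.19, -0.69, -0.65 and -0.06, and that of CRY2 was -0.45, -0.21, -0.29 and -0.06, so both were falling in each set and nearly flat in the last.

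The other clock genes did not pass after adjustment. At an unadjusted p under 0.05 the slope test took 7 of the 8 clock gene probes, all but CLOCK, against 11.1% of all probes. CRY1 had a slope of -0.24 (SE 0.07, adjusted p = 0.17, limma) and PER1 of -0.19 (SE 0.07, adjusted p = 0.27). The slopes of ARNTL were positive by both probes, 0.17 (SE 0.05, adjusted p = 0.22) and 0.12 (SE 0.04, adjusted p = 0.27). DBP had -0.24 (SE 0.09, adjusted p = 0.32), most of it from the first set (-0.80, against -0.08, 0.03 and -0.10 in the others). CLOCK had -0.02 (SE 0.05), which turned to 0.0014 without the array of 21 h.

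The PER2 call held when any 1 array was left out (slopes of -0.77 to -0.56), but not when the set of 12 to 21 h (adjusted p = 0.11) or of 24 to 33 h (adjusted p = 0.098) was, by limma. CRY2 kept its call without the array of 3, 6, 36 or 45 h and lost it without any 1 of the other 12, with adjusted p-values of 0.050 to 0.11. Without the first set, which holds the untreated culture, 4 clock gene probes were called: PER2 (-0.47), CRY2 (-0.19), CRY1 (-0.19, adjusted p = 0.037) and ARNTL ILMN_6635 (0.23, adjusted p = 0.0039, limma).

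**Figure D4:**
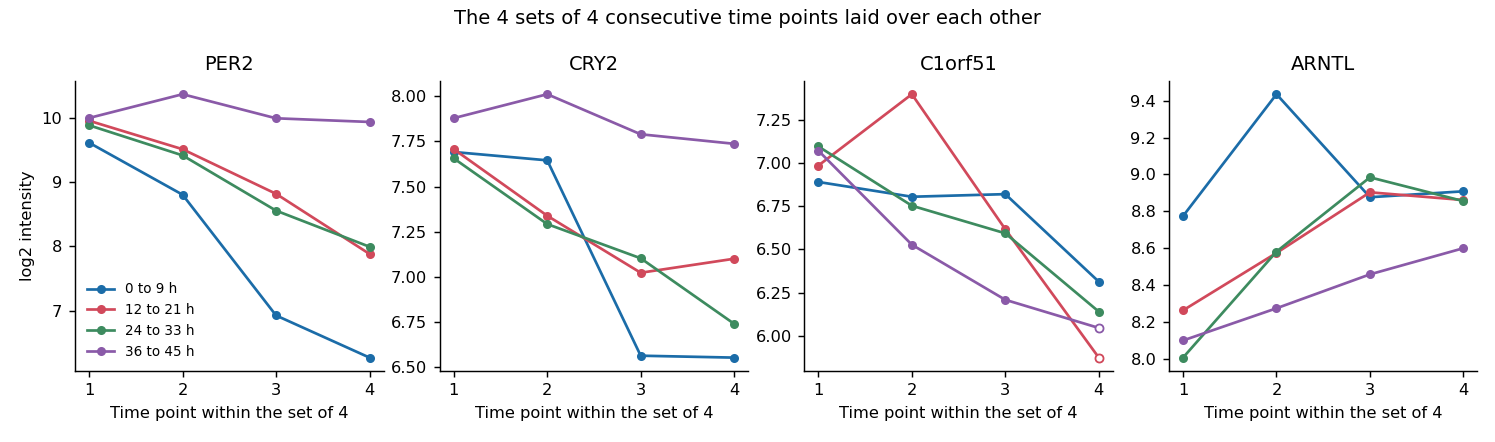
Log2 intensity against the place of the time point within its set of 4, with 1 line per set of time points, for PER2, CRY2, C1orf51 and the ARNTL probe ILMN_6635, and open points where the probe was not above background. The lines of 12 to 21 h and 24 to 33 h lie close together for PER2 and ARNTL, and the line of 36 to 45 h is flat for PER2 and CRY2.

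The reset between runs fell between 9 and 12 h, 21 and 24 h, and 33 and 36 h. PER2 rose 12.8-fold at the first of these steps, the largest change in either direction of all 11957 probes, from 7.88 to 9.88 at the next, where it ranked second, and 4.01-fold at the last, where it ranked thirteenth. A fold of at least 1.7 at the first step was reached by 4 of the 8 clock gene probes (PER2, CRY1, CRY2 and DBP, all higher), against 7.37% of all probes. At the step from 21 to 24 h it was reached by PER2 (higher) and ARNTL ILMN_6635 (1.81-fold lower), against 0.953% of all probes, and at the last by PER1, PER2, CRY2 and DBP (all higher), against 6.4%. These single steps have no test.

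Whether the repeat is a course of about 12 h in the cells or a difference in how the cultures or arrays of each run of 4 were handled cannot be told apart, because each time has 1 culture and the labels name no plate, chip or day. Measures of whole arrays moved little with the place in the run. They do not show how single genes respond to handling, so they cannot decide this question. Per step, the median intensity changed by -1.75 (SE 1.65) at a mean of 239, and the number of rows above background by -7.8 (SE 31.9). In a list of cell division genes, added after the values were seen, all 12 probes had negative slopes within the runs (median -0.21, against 0.001 over all probes), and 6 of the 12 were called, against 0.602% of all probes called as falling. Among the 6 were the mitotic kinase gene AURKB and TOP2A, a topoisomerase gene. Their part in the clock gene result was not tested.

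Between the ends of the series, 3 of the 8 clock gene probes were higher in the last 4 time points than in the first 4 (16.2% of all probes) and 2 were lower (15% of all probes, and 31.2% in either direction), by limma at an adjusted p under 0.05. PER2 was 2.17 log2 units higher (SE 0.59, adjusted p = 0.0096), with all 4 last levels above all 4 first ones. CRY2 was 0.74 higher (SE 0.25, adjusted p = 0.034), also with no overlap, and DBP 1.02 higher (SE 0.33, adjusted p = 0.023), with overlap because of its high levels at 0 and 3 h.

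ARNTL was lower at the end, by 0.64 on ILMN_6635 (SE 0.20, adjusted p = 0.023, limma), with no overlap. On ILMN_6868 the last 4 arrays were not above background, so this probe was at least 1.08-fold lower (adjusted p = 0.026). PER1 (0.57, SE 0.25, adjusted p = 0.095), CRY1 (-0.65, SE 0.28, adjusted p = 0.084) and CLOCK (-0.17, SE 0.16, adjusted p = 0.44) did not pass.

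These calls rest on which times are set against each other. With only 0 and 3 h against 42 and 45 h, the PER2 difference was 0.76 (adjusted p = 0.32), those of CRY2 and DBP were 0.09 and 0.06, and CRY1 was the 1 probe called (-1.02, adjusted p = 0.033, limma). Without the array of 39 h, PER2 was the 1 clock gene probe called (2.07, adjusted p = 0.028). CRY2 lost its call also without the array of 6, 9, 36, 42 or 45 h, DBP without that of 6, 9 or 42 h, ARNTL ILMN_6635 without that of 3 or 36 h, and ILMN_6868 without that of 3, 9, 36 or 42 h. A smooth curve over time, a natural cubic spline, called 1 of the 8 clock gene probes, DBP (limma adjusted p = 0.0013), while 54.6% of all probes were called. PER2 was not among them (adjusted p = 0.24).

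The courses of the clock genes were set against that of PER2 over the 16 arrays, as 7 relations, with two-sided permutation tests. CRY2 followed PER2 (r = 0.92, rho = 0.96, p = 1e-05 for each, the smallest that 100000 permutations can give, adjusted 7e-05), and r was 0.88 without the arrays of 6 and 9 h, where PER2 was farthest from its median. ARNTL ILMN_6635 ran against it (r = -0.63, permutation p = 0.0089, adjusted 0.013; rho = -0.80, p = 0.0003, adjusted 0.0007), with r = -0.72 without those arrays. ILMN_6868, mostly below the detection limit, had r = -0.70 (permutation p = 0.0033, adjusted 0.0061) and rho = -0.83 (p = 0.00019, adjusted 0.000665), with r = -0.81 without them.

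DBP had r = 0.71 with PER2 (permutation p = 0.0018, adjusted 0.0061) and rho = 0.78 (p = 0.00059, adjusted 0.00083), and PER1 had r = 0.68 (p = 0.0035, adjusted 0.0061) and rho = 0.79 (p = 0.00049, adjusted 0.00083). Without the 2 arrays these fell to 0.59 and 0.58. CRY1 (r = 0.12, permutation p = 0.65, adjusted 0.74; rho = -0.13, p = 0.63, adjusted 0.73) and CLOCK (r = -0.09, p = 0.74, adjusted 0.74; rho = -0.01, p = 0.99, adjusted 0.99) showed no such relation, with r = -0.06 and 0.57 without the 2 arrays. Permutation treats the arrays as exchangeable, which a time series is not, so these p-values are too small. Of all tested probes of other genes, the 5 most like PER2 over the 16 arrays were those of AMH (r = 0.93), CRY2, MGMT (r = 0.87), KIAA1737 (r = 0.86) and RAB22A (r = 0.86).

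A further 19 genes of the clock and its modifiers were on the array, with 25 probes, and 15 of them had a probe bright enough to test. Their slopes within sets had a median of -0.05, and 1 of the 15 probes was called, against 0.644% of all probes. This was C1orf51, also called CIART, a repressor of CLOCK and ARNTL. It read 6.89, 6.80, 6.82 and 6.31 at 0 to 9 h, 6.99, 7.40, 6.62 and 5.87 at 12 to 21 h, 7.10, 6.75, 6.59 and 6.14 at 24 to 33 h, and 7.07, 6.53, 6.21 and 6.05 at 36 to 45 h, and was not above background at 21 and 45 h. Its slope was -0.31 (SE 0.05, limma adjusted p = 0.0075), and unlike PER2 and CRY2 it fell as steeply in the last set (-0.34) as in the earlier ones (-0.17, -0.41 and -0.30); the difference between the genes was not tested. TEF, a relative of DBP, had a slope of -0.20 (adjusted p = 0.12, limma).

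The spline called 10 of the 15 genes, a share near that of all probes (54.6%). Among them were the ARNTL partner NPAS2, the ARNTL activator RORA, the repressors BHLHB2 and BHLHB3 (DEC1 and DEC2), and TIMELESS. The others were the kinases CSNK1D, CSNK1E and GSK3B that phosphorylate clock proteins, the ubiquitin ligase subunit BTRC, and CCRN4L (nocturnin). BHLHB2 and BHLHB3 were highest in the untreated culture of 0 h and lowest at 9 h, 5.18-fold and at least 5.16-fold apart. Within the first run PER2 and DBP were also highest at 0 h and lowest at 9 h. In the last 4 time points against the first 4, 5 of the 15 were called, again a share near that of all probes (31.2%). BTRC was 0.59 higher, while TIMELESS was 0.72 lower, GSK3B 0.81 lower and CCRN4L 1.11 lower, with limma adjusted p-values from 7.1e-05 to 0.0072. No one of the 15 was called by the 24 h test, and GSK3B alone had an unadjusted p under 0.05 (0.010, limma).

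**Figure D5:**
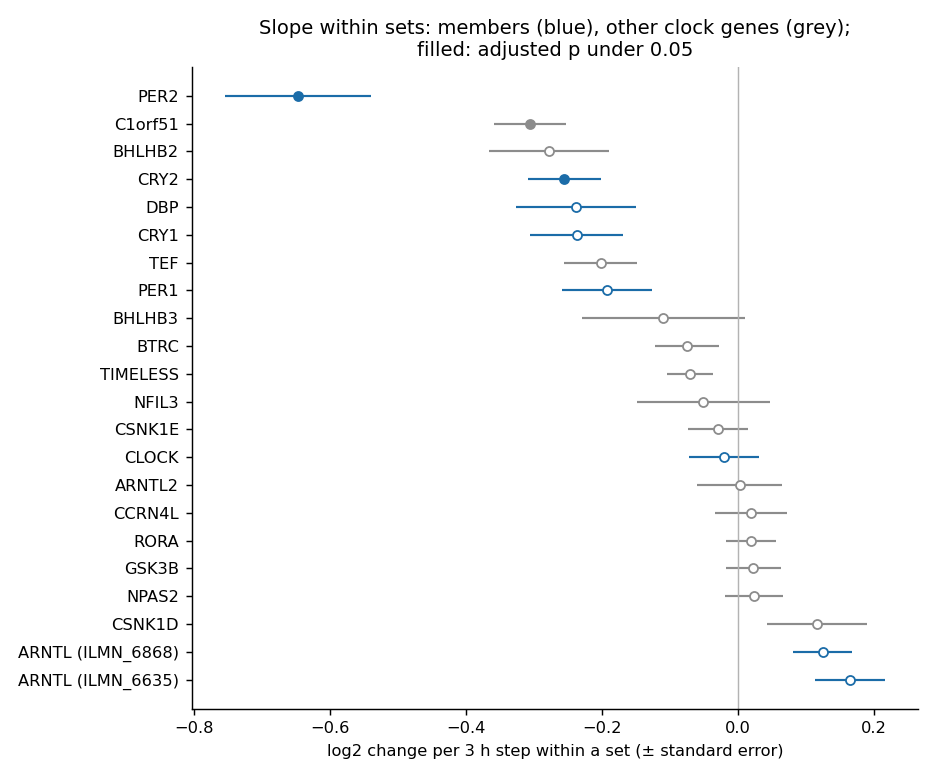
Log2 change per 3 h step within sets of 4 time points, with its standard error, for the 8 tested clock gene probes (blue) and 14 probes of other clock genes (grey), filled where the limma adjusted p was under 0.05. PER2 lies farthest from 0 at -0.65, C1orf51 and CRY2 are the other filled points, and both ARNTL probes lie at the positive end.

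Hydrocortisone was in the medium throughout, and the medium was changed at the start of treatment. A list of genes that glucocorticoids induce was checked for the same pattern. Of 10 such genes, PER1 not being one of the list, 7 were higher in the last 4 time points (16.2% of all probes were), with a median difference of 1.06 log2 units over the list, and 0 had a called slope within sets (median 0.01; 0 of the 10 at an unadjusted p under 0.05, limma). TSC22D3, an inhibitor of inflammatory signalling, was read by its probe ILMN_9893, as ILMN_20126 and ILMN_23548 were above background on 0 arrays. By this probe it was lowest at 9 h, as PER2 was, 19.6-fold below its highest level at 42 h. It was 2.81 higher at the end (limma adjusted p = 0.0004). FKBP5, a chaperone partner of the glucocorticoid receptor, was 0.43 higher (limma adjusted p = 0.0012). The part of glucocorticoid signalling in the clock gene levels was not tested.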

How the data were processed

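For every row the authors deposited 16 linear intensities, as yet unnormalized, each with a detection p-value that ranks it among the negative beads. Per the methods of the study, arrays were quantile normalized across those compared; the summary software and the build of the array annotation are not given in the sources used here.

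Starting from these intensities, the background was corrected with normexp, with the negative level read off the detection p over 19092 rows that stand for a single probe (level of 166 to 199, from 708 negative beads), 16 was added, and quantile normalization and log2 followed (R 4.3.3, limma 3.58.1). The offset compresses the change of dim probes. The filter kept probes above background (detection p under 0.05) on 3 or more arrays. A change whose dim side was never above background is given as a bound, against the lowest detected single-probe intensity of the array or the probe's own if higher. The number of arrays, 1 for each time, limits the precision.

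limma was fitted to all 16 arrays and 11957 probes, with a prior variance that follows intensity and Benjamini-Hochberg adjustment over all probes: a 3-df natural spline of time, a 24 h cosine with a linear term, and 4 groups of 4 time points (last against first). The 12 h cosine, the slope within sets (11 residual degrees of freedom), the steps between runs and the list of division genes were added after the values were seen. Groups of time points are not replicates, so their spread holds the change within a group. The scripts were tested on simulated data. The clock genes and the gene lists were chosen with earlier results of these data known. The genes named are all clock genes of both lists that passed a test, TSC22D3 and FKBP5, and the 5 probes of other genes most like PER2, as fixed by rule. Genes outside it, such as AURKB and TOP2A, and among the other clock genes those named for the slope or the comparison of ends, were chosen after their values were seen. The values of 2 genes of the lists are not reported here. Figures were drawn with matplotlib 3.10.9. The alternatives tried were other background corrections, offsets, normalizations, filters, thresholds, curves, periods and time points, and leaving out each array in turn.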

Additional observations from a re-analysis of the deposited data

How the results depend on the processing

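No paired analysis was possible because each time point has 1 array. A slide as a block was planned and was not run, since neither the labels nor the table name the slides. The highest over the lowest PER2 level was 17.1, fell to 6.18 without background correction, and was 10.9 to 17.1 with each array left out. Without that correction the ratio also fell for the other tested clock gene probes, as for DBP from 5.56 to 2.46. The number of clock gene probes called was 1 by the spline and 2 with a spline of 2 degrees of freedom (1 to 2 with each array left out). It was 0 by the 24 h cosine and 1 over 12 to 45 h (0 with any 1 array left out). For the last against the first time points it was 5, but 1 at an adjusted p under 0.01, 1 for 0 and 3 h against 42 and 45 h, and 3 when only the 8 arrays compared were fitted (1 to 6 with each array left out). For the slope within sets it was 2, but 1 with no filter on detection, 1 at an adjusted p under 0.01, 4 without the set of 0 to 9 h, 0 without that of 12 to 21 h, 0 without that of 24 to 33 h and 1 without that of 36 to 45 h (1 to 2 with each array left out). CLOCK, which was not called, changed sign in its slope without the array of 21 h (0.0014, in a range of -0.061 to 0.0014) and without the sets of 12 to 21 h (0.018) and 24 to 33 h (0.012), and in the last against first difference for 0 and 3 h against 42 and 45 h (0.10). With median scaling the ARNTL probe ILMN_6635 missed the threshold for the last against the first time points (-0.48, limma adjusted p = 0.082), and DBP missed that of a straight line in time (adjusted p = 0.28). Over all probes, the 3730 calls between the ends of the series became 2313 at an adjusted p under 0.01 and 2475 with only the 8 arrays, the 77 slope calls became 43 at an adjusted p under 0.01 and 298, 19, 31 and 25 without the first to the last set, the 6533 spline calls became 1953 for a straight line, and the 0 calls of the 24 h cosine became 7 with a level for each 8 arrays and 1731 over 12 to 45 h. The cause of these changes was not tested. Signal near background limits PER1, CLOCK and ARNTL ILMN_6868, and leaves PER3, NR1D1 and NR1D2 without a course. It also limits the 9 h levels of PER2 and DBP (detection p of 0.034 and 0.042).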
